A study of Homo sapiens with 4 samples.

Results

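The genes described here encode the SR proteins, the hnRNP proteins and a set of regulators that choose splice sites in epithelial and other tissues. They were taken by symbol from the gene table of an RNA-Seq comparison of 2 cell lines, MDA-MB-231 and LM2-4175. Symbols of SRSF and a number (13 rows), symbols that start with HNRNP (22 rows, pseudogene symbols left out) and 12 genes given by name (ESRP1, ESRP2, RBFOX2, PTBP1, PTBP2, PTBP3, MBNL1, MBNL2, MBNL3, CELF1, TRA2A and TRA2B) made 47 of the 57815 rows. These rows carry 46 symbols, as SRSF8 is listed under a pair of gene identifiers. MDA-MB-231 is a human triple-negative breast cancer cell line, and LM2-4175 is a cell line of the same origin with high metastasis to the lung. Both were grown in culture without treatment, and each was sequenced in 2 libraries made from extracted total RNA with a TruSeq kit.

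Splicing joins the exons of a transcript, and the choice among alternative exons depends on proteins that bind the RNA near splice sites. SR proteins carry a domain rich in arginine and serine and mostly promote the use of exons that they bind, while hnRNP proteins coat nascent RNA and often act against inclusion. ESRP1 and ESRP2 drive the exon choices typical of epithelial cells, and their loss goes with a mesenchymal state. MBNL, RBFOX, CELF and PTBP proteins shape exon choice during the development of muscle, brain and other tissues.

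The table holds 1 FPKM (mapped fragments divided by transcript length and by library size) per gene and cell line, which combines both libraries, with a lower and an upper bound. No value per library was examined, so no SD and no replicate test stands behind any difference, and the comparison is between these pooled libraries. The sources used here do not say if the spread of the libraries is part of these bounds. The table holds no counts, so the precision of each value is given here by its bounds. Change is given as the log2 fold change of FPKM + 1, LM2-4175 over MDA-MB-231, a scale that understates changes at low levels. A gene was compared where its mean FPKM was at least 0.5 and its status was OK, and was called where it also changed by 1.5-fold or more without overlap of the bounds. The authors tested the cell lines with Cuffdiff, also at 1.5-fold, and report more changed genes than this rule calls. Their test is not used here.

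Marker genes of these cell lines and of other cell types were checked first. VIM, which encodes the intermediate filament vimentin, had 1355 FPKM in MDA-MB-231 and 1768 FPKM in LM2-4175. The hormone receptor genes ESR1 and PGR stood at 0.0331 FPKM or lower in both. ERBB2 had 35.0 and 22.8 FPKM, and the epithelial adhesion gene EPCAM 12.3 and 4.93 FPKM. Of 7 blood cell genes, 6 were under 2 FPKM in both cell lines, the exception being CD68 (107 and 178.9 FPKM), and the 5 lung epithelium genes and 2 endothelial genes were also under 2 FPKM.

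Most of the splicing regulators were highly expressed, and none differed beyond its bounds between the cell lines. Of the 47 rows, 44 passed the filter, and none of the 44 was called in either direction, beside 9.27% of all 13911 genes compared (4.67% higher and 4.61% lower). No member had bounds apart at any fold, beside 9.39% of all genes (4.74% higher and 4.64% lower). SRSF12, HNRNPCL1 and ESRP1 did not pass the filter, and HNRNPCL1 was listed at 0 in both cell lines. The FPKM of 17 members was higher in LM2-4175 and that of 27 was lower. The median log2 fold change of the members was -0.06, beside -0.04 for all genes compared, and their median size of change in either direction was 0.15, beside 0.28. Changes of at least 1.5-fold, with overlapping bounds, were seen in MBNL3 and HNRNPH2 (higher) and in MBNL2 and ESRP2 (lower). These 4 were 9.09% of the members compared, while 22.1% of all genes compared passed 1.5-fold (10.3% higher and 11.8% lower).

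The members were among the more abundant transcripts, with a median of the mean FPKM of 106.4 beside 11.9 for all genes compared. Of all FPKM they held 1.21% in MDA-MB-231, against 1.24% in LM2-4175. Of the 35 members with a mean of at least 20 FPKM none was called, beside 7.28% of the 5043 genes compared at that level. Their median size of change was 0.13, beside 0.25 for those genes. The 22 members of at least 100 FPKM also held no call, beside 8.11% of 986 genes, and their changes ran from -0.34 to 0.36.

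The bounds were wide compared with these differences. Among the 44 members, the upper bound exceeded the FPKM by 29.9% (median) in MDA-MB-231 and by 29.6% in LM2-4175. With bounds of that relative width, a member would have needed a median ratio of 1.87 upwards or 1.86 downwards for its bounds to part. The plot of FPKM by member shows the overlap for each of them.

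**Figure D1:**
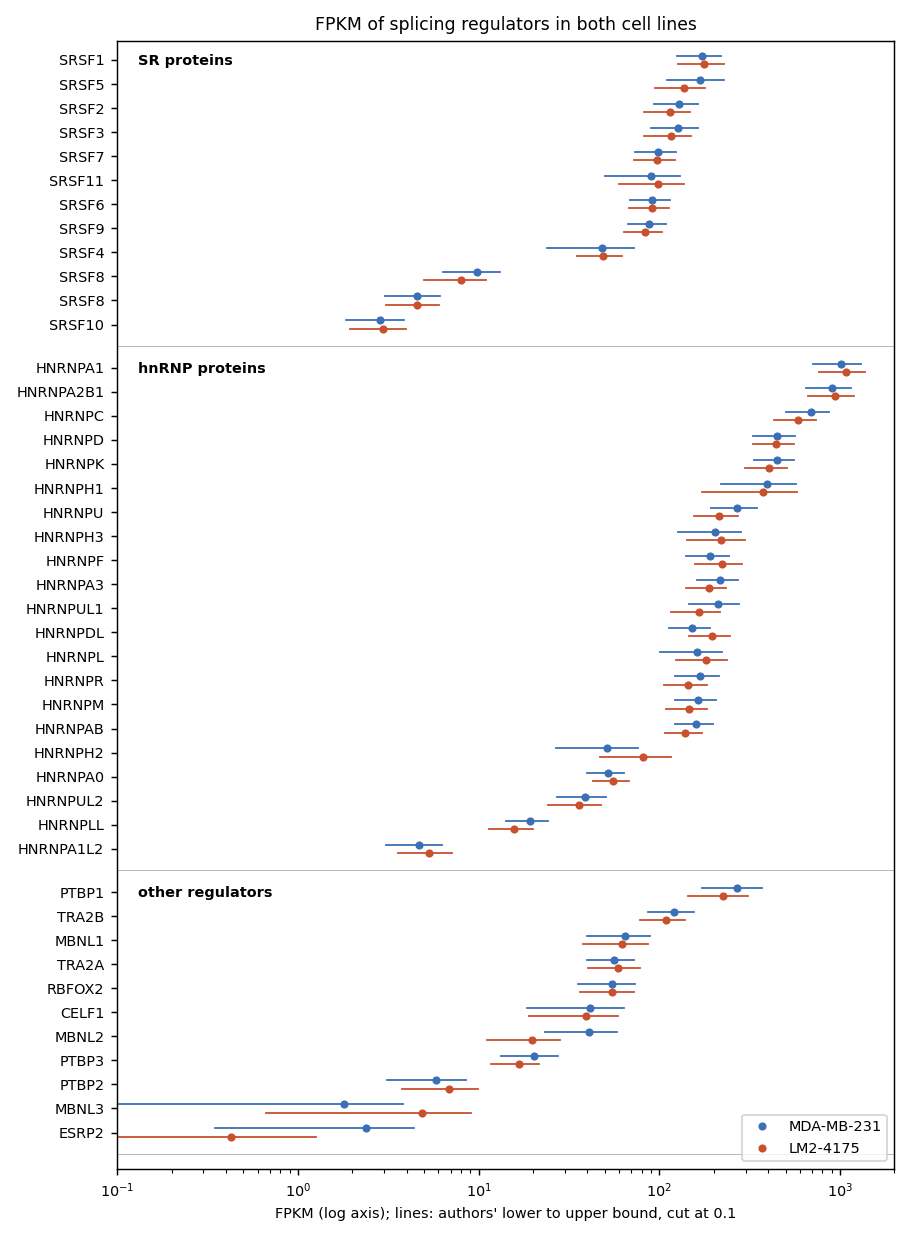
FPKM of the 44 members compared (log axis) in MDA-MB-231 (blue) and LM2-4175 (orange), by family and sorted by mean level. Points are the deposited FPKM of the combined libraries and lines run from the authors' lower to upper bound, cut at 0.1, which the lower bounds of MBNL3 in MDA-MB-231 and ESRP2 in LM2-4175 pass because they are 0. For each member the lines of the cell lines overlap. SRSF8 appears as 2 gene identifiers.

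Among the SR proteins, SRSF1 stood highest in both cell lines. This first-described SR protein, also a regulator of translation and RNA decay, had 172.2 FPKM (bounds 124.6 to 219.9) in MDA-MB-231 against 178 FPKM in LM2-4175 (128 to 228). The log2 fold change was 0.05, and ratios from 0.580 to 1.83 lie within the extremes of the bounds. SRSF5, whose RNA responds to growth factors, had 169 FPKM (110.5 to 227) and 137 FPKM (94.9 to 179), with -0.30 as its log2 fold change and the most negative of the family. SRSF2, which recognises exonic enhancers and is mutated in myeloid cancers, had 129 FPKM and 115 FPKM. SRSF3, the smallest SR protein and also an adaptor of mRNA export, had 127 FPKM and 117 FPKM. The bounds of the cell lines overlapped for all of these.

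SRSF7, which also takes part in mRNA export, had 98.8 FPKM in MDA-MB-231 and 97.6 FPKM in LM2-4175. SRSF6 had 91.6 and 90.8 FPKM, so the levels of SRSF6 and SRSF7 were within 2% of each other between the cell lines as listed. SRSF9 had 88.0 and 83.7 FPKM. SRSF11, with 89.9 FPKM (50.3 to 129) and 98 FPKM (59.8 to 136), had the most positive log2 fold change of the SR proteins at 0.12. SRSF4 had 47.9 and 48.7 FPKM.

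The low end of the family was SRSF10, a regulator that becomes a repressor when dephosphorylated, with 2.85 FPKM (1.84 to 3.87) and 2.94 FPKM (1.94 to 3.95). SRSF8, a retrogene related to SRSF2, was listed as ENSG00000271885 with 9.78 and 8.01 FPKM and as ENSG00000180771 with 4.57 and 4.56 FPKM. Both identifiers were assigned to 1 locus (chromosome 11 of hg19, 94800056 to 94804388), so the split of reads between them is uncertain. SRSF12 was at 0.00350 FPKM in MDA-MB-231 and listed at 0 in LM2-4175. Across the 12 SR protein rows compared, 4 were higher and 8 lower in LM2-4175, with no call and no change of 1.5-fold. Their median log2 fold change of -0.01 became 0.07 after scaling to TPM, 0.01 after quantile normalization and 0.03 after centring on all genes. In the order of levels, only 2 of the 11 neighbouring pairs in each cell line had bounds that did not overlap, with SRSF4 over the higher SRSF8 row among them in both.

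The hnRNP proteins were the most abundant members, and HNRNPA1, HNRNPA2B1, HNRNPC, HNRNPD and HNRNPK led the list in both cell lines. HNRNPA1, a repressor of exon inclusion that also shuttles to the cytoplasm, had 1011 FPKM (713 to 1309) in MDA-MB-231 against 1073 FPKM (764 to 1383) in LM2-4175. HNRNPA2B1, its close relative that also sorts RNAs for transport, had 899 FPKM (644 to 1154) and 934 FPKM (667 to 1200). The log2 fold changes of these genes were 0.09 and 0.05, and their bounds overlapped between the cell lines and with each other. HNRNPC, which binds uridine tracts and keeps cryptic exons out, had 688 FPKM (502 to 874) and 583 FPKM (432 to 734). HNRNPD, also known as the RNA decay factor AUF1, had 447 and 444 FPKM. HNRNPK, which binds cytosine-rich RNA and DNA, had 446 and 403 FPKM.

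Below these, HNRNPH1 had 393 FPKM (219 to 568) in MDA-MB-231 against 377 FPKM (173 to 580.4) in LM2-4175, with wide bounds in both. The most negative log2 fold changes of the family were in HNRNPUL1 (-0.34), HNRNPU (-0.33) and HNRNPLL (-0.28). HNRNPUL1 had 210.3 FPKM (145 to 275) and 166 FPKM (116 to 215). HNRNPU, a scaffold protein that binds chromatin and RNA, had 269 FPKM (192 to 346) and 214 FPKM (155 to 273). HNRNPLL, a regulator of CD45 splicing in lymphocytes, had 19.3 FPKM (14.2 to 24.3) and 15.7 FPKM (11.4 to 20.05). Bounds overlapped for each of the 3 genes.

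The most positive log2 fold changes were in HNRNPH2 (0.65), HNRNPDL (0.36) and HNRNPF (0.21). HNRNPH2, an X-linked protein close to hnRNP H1 that binds guanine runs, had 51.6 FPKM (26.8 to 76.4) in MDA-MB-231 against 81.5 FPKM (47.0 to 116) in LM2-4175 (ratio 1.58). The lower bound in LM2-4175 lay well under the upper bound in MDA-MB-231. HNRNPDL had 152 FPKM (114 to 191) and 196 FPKM (147 to 245) (ratio 1.28). HNRNPF, which also binds guanine runs, had 192 FPKM (139.9 to 243) and 222 FPKM (158 to 286).

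Of the 21 hnRNP genes compared, 9 were higher and 12 lower in LM2-4175, and 1 of them, HNRNPH2, changed by at least 1.5-fold. The remaining members of the family (HNRNPA0, HNRNPA3, HNRNPAB, HNRNPH3, HNRNPL, HNRNPM, HNRNPR, HNRNPUL2 and HNRNPA1L2) had log2 fold changes between -0.22 and 0.16. The median of the family was -0.06, and it became 0.02 after scaling to TPM and 0.06 after quantile normalization. The FPKM of the hnRNP genes added up to 5951 in MDA-MB-231 against 5824 in LM2-4175 (ratio 0.979), beside 0.945 for the sum over all genes. Within the group of hnRNP H and F genes, HNRNPH2 held 6.14% of the FPKM in MDA-MB-231 against 9.06% in LM2-4175. HNRNPH1 held 46.8% and 41.9%. Neighbours in the order of levels had bounds apart in 3 of 20 pairs in MDA-MB-231 and 2 of 20 in LM2-4175, with HNRNPUL2 over HNRNPLL and HNRNPLL over HNRNPA1L2 in both.

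**Figure D2:**
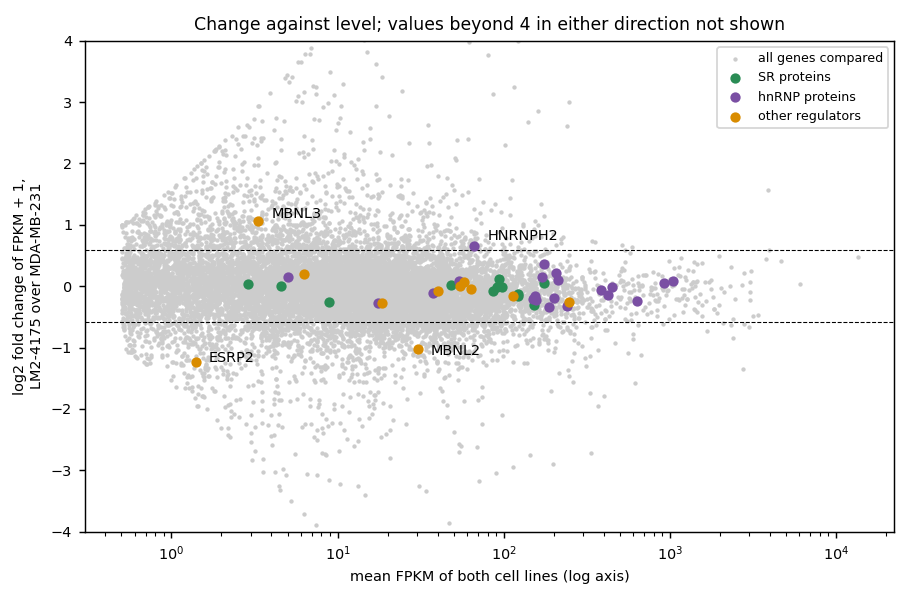
Log2 fold change of FPKM + 1 (LM2-4175 over MDA-MB-231) against the mean FPKM (log axis) for all genes compared (grey) and the 44 members, coloured by family. Dashed lines mark 1.5-fold in each direction, and values beyond 4 are not shown. MBNL3 and HNRNPH2 lie above the upper line, MBNL2 and ESRP2 lie below the lower line, and the other 40 members lie between them.

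Some members share sequence with other genes, which limits how reads of 150 bases can be assigned. Among transcripts of the members in GENCODE 44, 12 pairs shared an exact run of at least 30 bases. For 1 pair, HNRNPA1 and HNRNPA1L2, the run was longer than a read, with 286 bases. The run of HNRNPH1 and HNRNPH2 was 50 bases. In GENCODE 44, HNRNPA1L2 is an intronless gene (chromosome 13 of GRCh37, 53216566 to 53217908, plus strand). It was 97.1% identical to transcripts of HNRNPA1 (chromosome 12, 54673977 to 54680872, plus strand). The authors list HNRNPA1L2 with a longer locus, 53191605 to 53217919, so the gene model they counted may differ. HNRNPA1L2 had 4.70 FPKM (3.09 to 6.30) in MDA-MB-231 against 5.35 FPKM (3.58 to 7.11) in LM2-4175, so HNRNPA1 stood 215 and 200.8 times as high.

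Of the pseudogene rows of both families, which are not members, 111 of 128 were listed at 0 in both cell lines. HNRNPA1P33, a processed pseudogene on chromosome 10 (47133338 to 47133898, minus strand), was the highest. It had 18.5 FPKM (0 to 41.1) in MDA-MB-231 against 2.02 FPKM (0 to 4.67) in LM2-4175. These bounds overlap and reach 0, and it was not called. The longest exact run of HNRNPA1P33 with transcripts of HNRNPA1 was 96 bases, shorter than a read. To show how alike the copies are, 120 bases are printed of the spliced HNRNPA1 transcript and of the same stretch in HNRNPA1L2 (chr13:53217029-53217148, plus strand, coding) and HNRNPA1P33 (chr10:47133774-47133893, minus strand), read from GENCODE 44 transcripts and GRCh37. Capitals mark bases that differ from HNRNPA1, 1 in HNRNPA1L2 and 6 in HNRNPA1P33.
HNRNPA1: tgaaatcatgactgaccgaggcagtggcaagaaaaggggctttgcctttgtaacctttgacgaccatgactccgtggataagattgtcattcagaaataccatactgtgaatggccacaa
HNRNPA1L2: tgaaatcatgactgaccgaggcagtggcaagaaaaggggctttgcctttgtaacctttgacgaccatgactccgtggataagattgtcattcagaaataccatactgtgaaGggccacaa
HNRNPA1P33: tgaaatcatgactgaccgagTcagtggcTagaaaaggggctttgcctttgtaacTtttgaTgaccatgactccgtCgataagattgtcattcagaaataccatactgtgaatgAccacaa

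MBNL2 had the largest difference among the members of at least 20 FPKM. Muscleblind proteins, encoded by the MBNL genes, promote the splice forms of differentiated tissue, and their sequestration by repeat RNA underlies myotonic dystrophy. MBNL2 (chromosome 13 of GRCh37, 97873688 to 98046374, plus strand) stood at 40.9 FPKM (23.4 to 58.4) in MDA-MB-231 against 19.7 FPKM (11.1 to 28.3) in LM2-4175. This was a ratio of 0.482, with -1.02 as the log2 fold change. The upper bound in LM2-4175 passed the lower bound in MDA-MB-231, so MBNL2 was not called, and ratios from 0.191 to 1.21 lie within the extremes of the bounds. With standard errors taken from the bounds in place of the bounds themselves, MBNL2 was the 1 member called, as lower, beside 14.4% of all genes compared (6.61% higher and 7.84% lower).

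MBNL1, the most abundant of the 3 genes, had 64.3 FPKM (39.9 to 88.8) in MDA-MB-231 against 61.9 FPKM (37.7 to 86.1) in LM2-4175, with -0.05 as its log2 fold change. MBNL3 (chromosome X, 131503348 to 131623996, minus strand), which is known for opposing muscle differentiation, stood at 1.80 FPKM (0 to 3.80) and 4.86 FPKM (0.666 to 9.05). Its log2 fold change was 1.06 and the ratio 2.70, and the bounds overlapped between 0.666 and 3.80 FPKM. MBNL2 held 38.2% of the FPKM of the MBNL genes in MDA-MB-231 against 22.8% in LM2-4175. MBNL1 held 60.1% and 71.6%. MBNL1 stood 1.57 times as high as MBNL2 in MDA-MB-231 and 3.14 times in LM2-4175. The bounds of MBNL1 and MBNL2 overlapped in MDA-MB-231 and did not overlap in LM2-4175.

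The epithelial regulators were low in both cell lines. ESRP2 (chromosome 16, 68262936 to 68272005, minus strand) stood at 2.38 FPKM (0.348 to 4.41) in MDA-MB-231 against 0.427 FPKM (0 to 1.26) in LM2-4175. ESRP2 thus had a ratio of 0.180, and its log2 fold change of -1.24 became -2.23 with a pseudocount of 0.1 and -2.48 without one. ESRP1 (chromosome 8, 95653302 to 95719694, plus strand) stood at 0.144 FPKM (0 to 0.408) and 0.439 FPKM (0.109 to 0.7701), under the filter. The bounds of both genes overlapped between the cell lines. Added together, ESRP1 and ESRP2 stood at 2.52 FPKM in MDA-MB-231 and 0.867 FPKM in LM2-4175.

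**Figure D3:**
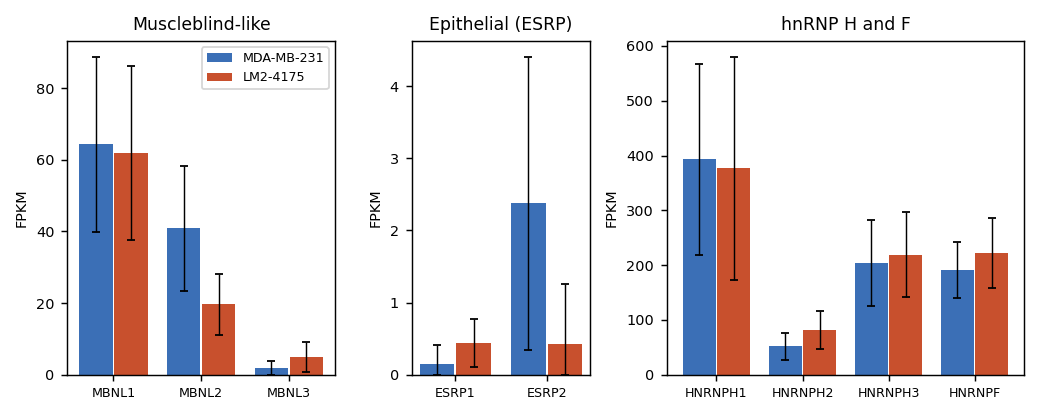
FPKM of the MBNL, ESRP and hnRNP H and F genes in MDA-MB-231 (blue bars) and LM2-4175 (orange bars), with the authors' lower and upper bounds as error bars and a separate axis for each group. MBNL2 went with 40.9 and 19.7 FPKM, ESRP2 with 2.38 and 0.427 FPKM and HNRNPH2 with 51.6 and 81.5 FPKM, and the error bars of the cell lines overlap for each gene.

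The other regulators named by gene were nearly level. PTBP1, the polypyrimidine tract-binding protein that represses neuronal exons, had 271 FPKM (173 to 369) in MDA-MB-231 against 226 FPKM (143 to 309) in LM2-4175, with -0.26 as its log2 fold change. Its paralogue PTBP3 had 20.3 FPKM (13.3 to 27.4) and 16.7 FPKM (11.6 to 21.7). PTBP2, the neuronal form, had 5.81 FPKM (3.12 to 8.49) and 6.82 FPKM (3.76 to 9.88). PTBP1 held 91.2% of the FPKM of the PTBP genes in MDA-MB-231 against 90.6% in LM2-4175. In both cell lines its bounds did not overlap those of TRA2B, the next in the order of this group.

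RBFOX2, which binds UGCAUG and acts in mesenchymal and epithelial exon choice, had 54.5 FPKM (35.7 to 73.4) in MDA-MB-231 against 54.7 FPKM (36.6 to 72.8) in LM2-4175, the smallest change of the 12 named genes. TRA2B, an activator of exons rich in purines, had 121 and 108 FPKM, and its paralogue TRA2A had 56.4 and 59.1 FPKM. CELF1, which opposes MBNL proteins at many exons, had 41.1 FPKM (18.6 to 63.7) and 39.1 FPKM (19.1 to 59.1). Of the 11 genes compared in this group, 4 were higher and 7 lower in LM2-4175. Their median log2 fold change was -0.07, and it became 0.01 after scaling to TPM and 0.05 after quantile normalization.

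The genes around the members with the largest differences were examined next. Within 3 Mb of HNRNPH2, 31 of 33 protein-coding genes compared had a higher FPKM in LM2-4175, 9 were called higher and the median change was 0.47. The 33 include RPL36A-HNRNPH2 (0.14, not called), a readthrough gene that shares exon bases with HNRNPH2 and so is not a separate neighbour. Of all genes compared, 45.5% had a higher FPKM and 4.67% were called higher. Within 3 Mb of MBNL3, 26 of 27 were higher, with a median of 0.41 and 3 called higher. The median over the other 389 protein-coding genes compared on chromosome X was 0.10. HNRNPH2 lay at 0.65 and MBNL3 at 1.06, and the part of the neighbourhood in these values was not tested. Around MBNL2, 9 of 16 neighbours were higher with a median of 0.12, in the direction opposite to the -1.02 of MBNL2. Around ESRP2, 53 of 82 neighbours were lower with a median of -0.09. Uneven neighbourhoods also lay around members of small change. Near SRSF3 (-0.13), 42 of 47 neighbours were lower, and near HNRNPL (0.15), 82 of 105 were lower. Near TRA2A (0.07), 19 of 22 were higher.

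**Figure D4:**
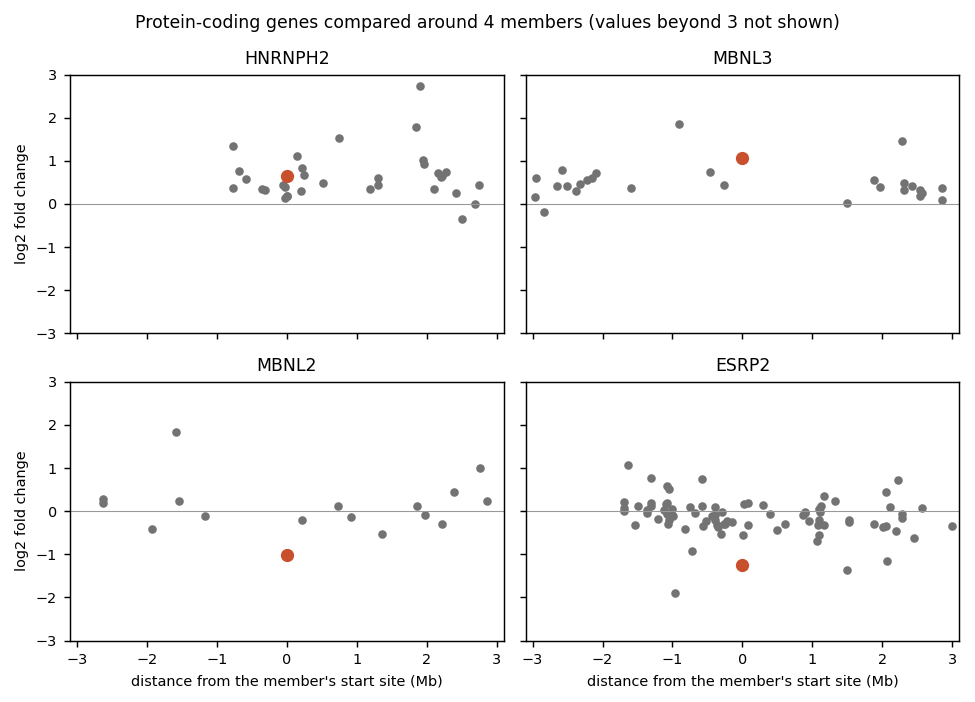
Log2 fold change of protein-coding genes compared within 3 Mb (grey) by the distance of their start site from that of HNRNPH2, MBNL3, MBNL2 or ESRP2 (orange, at 0 Mb); values beyond 3 are not shown. Around HNRNPH2 and MBNL3, 31 of 33 and 26 of 27 neighbours lie above 0, while the neighbours of MBNL2 and ESRP2 lie on both sides.

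Exons of other genes lie over some of these members, and the use of strand in the counting is not stated. In GENCODE 44, the readthrough gene RPL36A-HNRNPH2 covers 15.8% of the exon bases of HNRNPH2 and was listed at 1.02 and 1.24 FPKM. NFATC3 on the opposite strand covers 4.37% of the exon bases of ESRP2 and was listed at 9.83 and 8.16 FPKM. A long non-coding RNA gene on the same strand covers 2.18% and was listed at 0.525 and 0.454 FPKM. NFATC3 stood above ESRP2 in both cell lines, so the low values of ESRP2 are uncertain. The part of these genes in them was not tested. No exon of another gene in GENCODE 44 overlaps MBNL2 or MBNL3. The authors list longer loci than GENCODE 44 for MBNL3 (131337053 to 131623996), HNRNPH2 (100645812 to 100669121) and ESRP2 (68021297 to 68272005). Overlaps on those loci were not examined. The overlap in that release was largest for HNRNPA1L2 (100%), HNRNPA3 (54.8%), SRSF9 (46.7%) and HNRNPUL2 (44.3%). The authors counted on an earlier release, so the overlaps of the gene models they used may differ. The gene over HNRNPA1L2 has no FPKM listed. SRSF9 extends to 120933749 in GENCODE 44, past the end of 120907596 listed by the authors. The values of HNRNPA3, SRSF9 and HNRNPUL2 are uncertain, and the part of the overlaps in them was not tested.

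Further genes of the splicing pathway were described from lists written for this purpose. Among 15 partners of SR proteins compared, 5 were higher and 10 lower, with a median log2 fold change of -0.13 and no call. The largest changes downwards were in LUC7L2 and SRRM3 (-0.63) and upwards in SRRM2 and SRRM1 (0.15). SRRM3 was called lower after quantile normalization. LUC7L2, a U1-associated protein, had 46.0 FPKM (22.5 to 69.5) in MDA-MB-231 against 20.1 FPKM (10.3 to 29.8) in LM2-4175. SRRM2, a large protein of nuclear speckles, had 83.6 FPKM (36.6 to 130.5) and 135 FPKM (62.7 to 207). Of 10 genes for SR protein kinases, a phosphatase and the import receptor, 4 were higher and 6 lower (median -0.19), and 1 was called, beside 9.27% of all genes. TNPO3, the receptor that carries SR proteins into the nucleus, fell from 34.9 FPKM (26.9 to 43.0) to 21.0 FPKM (16.1 to 26.0). This call was lost after scaling to TPM and after quantile normalization. The kinases CLK1, CLK2 and DYRK1A had log2 fold changes of 0.51, 0.49 and -0.62 with overlapping bounds.

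Among 43 further splicing regulators compared, 5 were called higher and 1 lower (6 genes, 13.95%, beside 9.27% of all genes compared), and their median log2 fold change was -0.06. CELF2, a CELF1 relative of muscle, brain and lymphocytes, rose from 5.54 FPKM (3.81 to 7.27) to 12.3 FPKM (8.81 to 15.9). RBM24, a regulator of muscle splicing, rose from 8.90 FPKM (6.28 to 11.5) to 17.97 FPKM (13.2 to 22.8). PCBP3, of the poly(C)-binding family, rose from 1.16 FPKM (0.479 to 1.83) to 17.8 FPKM (10.7 to 24.9). Also called higher were MSI2, from 1.70 to 32.2 FPKM, and KHDRBS3, from 15.8 to 36.3 FPKM. RBM47, an RNA-binding protein of epithelial cells, fell from 10.0 FPKM (7.51 to 12.6) to 2.26 FPKM (1.47 to 3.05), with -1.76 as its log2 fold change. These 6 calls held after scaling to TPM, centring and quantile normalization.

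Of 19 epithelial genes that go with ESRP expression, 12 were compared. Of these 3 were higher and 9 lower in LM2-4175, 5 were called lower and none higher (beside 4.61% and 4.67% of all genes compared), with a median log2 fold change of -0.49. CLDN4, a tight junction protein, fell from 69.2 FPKM (53.5 to 85.0) to 2.63 FPKM (1.73 to 3.53). The keratin gene KRT19 fell from 250.3 to 36.3 FPKM, KRT8 from 626 to 180.2 FPKM and KRT18 from 448 to 181 FPKM, while EPCAM fell from 12.3 to 4.93 FPKM. The call of KRT18 was lost after quantile normalization. The 3 genes with a higher FPKM in LM2-4175, none called, were CLDN7 (19.4 and 28.0 FPKM), MARVELD2 (1.57 and 2.32 FPKM) and GRHL1 (0.338 and 0.669 FPKM). Of the other transcription factors of epithelial cells, ELF3 had 3.04 and 1.78 FPKM, with bounds that reach 0 in both. GRHL2, OVOL1 and OVOL2 were at 0.0851 FPKM or lower in both cell lines. CDH1 had 0.851 FPKM (0.403 to 1.30) and 0.366 FPKM (0.0734 to 0.658), with overlapping bounds.

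Of 10 mesenchymal genes, 7 were compared, and 4 of these were higher and 3 lower in LM2-4175. SPARC was called higher (13.6 to 232 FPKM), and FN1 (314 to 117 FPKM) and SNAI1 (2.59 to 0.836 FPKM) were called lower. Of all genes compared, 4.67% were called higher and 4.61% lower. ZEB1, a repressor of ESRP1 and of other epithelial genes, had 26.1 FPKM (16.5 to 35.6) in MDA-MB-231 against 40.5 FPKM (25.7 to 55.2) in LM2-4175. ZEB2 had 5.30 FPKM (2.18 to 8.42) and 10.6 FPKM (4.98 to 16.2). Both changes passed 1.5-fold with overlapping bounds and were not called. SNAI2 was lower, with 20.2 FPKM (15.3 to 25.1) and 14.6 FPKM (11.0 to 18.3), and VIM was higher, with 1355 and 1768 FPKM. Neither SNAI2 nor VIM passed 1.5-fold. CDH2 (0.221 and 0.0839 FPKM), TWIST1 (listed at 0 in both cell lines) and TWIST2 (0.00030 and 0.00024 FPKM) did not pass the filter.

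Genes whose splice forms ESRP, PTBP or hnRNP A1 are known to set could be read only as gene totals, as the table holds no isoforms. Of 20 compared, 5 had a higher and 15 a lower FPKM, with 2 called lower (beside 9.27% of all genes called either way) and a median log2 fold change of -0.14. After quantile normalization the median was 0.00, and 10 genes were higher and 9 lower. MCL1, a regulator of apoptosis, had 95.3 FPKM (72.4 to 118) and 149 FPKM (113 to 185), and was called higher after scaling to TPM and after quantile normalization. FGFR3 fell from 1.57 to 0.307 FPKM and CASP2 from 17.3 to 9.03 FPKM. CD44 had 470 FPKM (296 to 644) and 355 FPKM (236 to 474). PKM, whose exon choice is set by PTBP1 and hnRNP A1, had 1418 and 1415 FPKM, and FGFR1 had 46.4 and 46.2 FPKM. CTNND1 had 43.6 and 45.4 FPKM, ENAH had 47.0 and 52.2 FPKM, and FGFR2 stood at 0.140 and 0.120 FPKM.

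**Figure D5:**
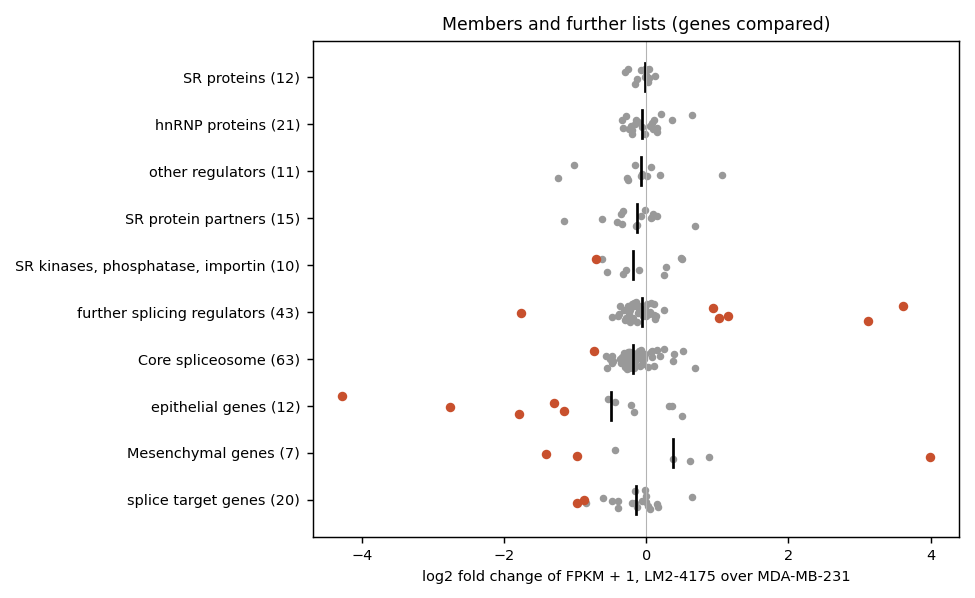
Log2 fold change of FPKM + 1 (LM2-4175 over MDA-MB-231) of the genes compared in the 3 families of members and in the further lists, with the number compared in parentheses; black bars are medians and orange points are genes called. The 44 members hold no orange point, the further splicing regulators hold 6 and the epithelial genes 5, and those 5 are all lower in LM2-4175.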

How the data were processed

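The authors extracted total RNA from LM2-4175 and MDA-MB-231 and made 2 libraries of each with a TruSeq kit. They sequenced these with paired reads of 150 bases, mapped to hg19 with TopHat2 and quantified on GENCODE 19 genes with Cufflinks and Cuffdiff. The authors deposited FPKM with lower and upper bounds for each gene and cell line, with the libraries combined. The normalization of library sizes and the use of strand are not given in the sources used here.

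Members were chosen by symbol over the 57815 genes. The members and the further lists were chosen with earlier results of these data known, and the named genes were those called or changed by 1.5-fold, the 3 largest changes each way and the 3 highest of each family, and the 12 genes of the rule. Other members are named to account for them, and of the further lists the genes called, the 2 largest changes each way or a few known genes. Any other gene was named after its values were seen. Log2 ratios of FPKM + 1 were computed in Python 3.11.15 with pandas 2.3.3. The 13911 genes with status OK and a mean of at least 0.5 FPKM were compared. As a standard error, the upper bound minus the FPKM was divided by 2. A test over libraries could not be run on 1 value per cell line. Positions, overlaps and shared runs came from GENCODE 44 on GRCh37, in which 45 of the 47 identifiers were found. The calling step was tested on simulated data. Alternatives were other pseudocounts, filters, folds, call rules and scalings.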

Additional observations from a re-analysis of the deposited data

How the results depend on the processing

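That no member was called held after scaling to TPM and after quantile normalization, which rescale the bounds. The other settings that need bounds apart could not change it, as no member had bounds apart as deposited. These were pseudocounts of 0.1 and 0, no filter, a mean of at least 1 or 5 FPKM, and folds of 2 and 1.2. The bounds alone, centring and leaving out the SRSF8 rows were also among them. With the fold alone, 2 members were higher (1 hnRNP gene, HNRNPH2, and 1 other regulator, MBNL3) and 2 other regulators were lower (MBNL2 and ESRP2). With the fold and standard errors, 1 member, the other regulator MBNL2, was lower, beside 919 genes higher and 1090 lower in all, against 649 and 641 with the bounds. The fold alone gave 1434 higher and 1640 lower in all, and folds of 2 with the bounds gave 450 and 403. With a mean of at least 5 FPKM these were 321 and 443. Members with a higher FPKM numbered 17 as deposited, 25 as TPM, 21 after centring and 24 after quantile normalization, so the direction of family medians near 0 depends on the scaling. No paired analysis was possible because the table gives 1 value per cell line, and leaving out single libraries was not run for the same reason. The table holds no counts, and the bounds of ESRP1, ESRP2 and MBNL3 reach 0 in 1 cell line each.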

Other observations

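Genes of the core spliceosome, the machinery that carries out splicing in all cells, were described in the same way. Of 63 compared, 12 were higher (19.05%) and 51 lower in LM2-4175. Of all genes compared 45.5% were higher, and of those with a mean of at least 20 FPKM 36.3%. The median log2 fold change of the spliceosome genes was -0.19, beside -0.04 for all genes compared and -0.12 for those of at least 20 FPKM. The median of the spliceosome genes was -0.12 after scaling to TPM, -0.15 after centring and -0.10 after quantile normalization. The number lower was then 44, 47 and 43. SNRPC, the C protein of the U1 particle that recognises the start of introns, fell from 285 FPKM (219 to 351) to 171 FPKM (131 to 210.5) and was the 1 gene called (beside 9.27% of all genes), a call that was lost after scaling to TPM and after quantile normalization. SNRPA1, of the U2 particle, stood at 66.0 FPKM (49.8 to 82.2) in MDA-MB-231 against 107 FPKM (80.5 to 133) in LM2-4175, and these bounds overlap. It was called higher after scaling to TPM and after quantile normalization. The next largest change in each direction was in BUD31 (92.5 and 62.3 FPKM) and PRPF40B (3.48 and 5.396 FPKM), neither called.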
